A study of Mus musculus with 20 samples.

Results

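The neocortex of old male mice fed a mixture of α- and γ-tocopherol was compared with that of old male mice on control diet, across all genes measured on the arrays. The comparison took every array labelled with either group, 5 arrays of mixture-fed mice and 5 arrays of old controls, which are 10 of the 20 arrays in the series. All 20 mice were male B6C3F1 hybrids (C57BL/6 crossed with C3H) that lived singly in a pathogen-free facility. Both groups were 30 months old. The mixture-fed mice had received 500 mg/kg of α-tocopherol together with 500 mg/kg of γ-tocopherol in the diet from 15 months of age, and the old controls ate the control diet. The other groups were 5 old mice of the same age given 1000 mg/kg of α-tocopherol alone from 15 months, and 5 young controls aged 5 months. One array was hybridised per animal, so the replicates are separate mice. Messenger RNA was selected with oligo-dT, converted into biotin-labelled cRNA and hybridised to Affymetrix GeneChip arrays. How much tocopherol the control diet and the brains held is not stated in the labels.

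Tocopherols are the main forms of vitamin E, fat-soluble antioxidants that stop the chain of lipid peroxidation in membranes. α-Tocopherol is the form retained by the body, because the liver's α-tocopherol transfer protein (Ttpa) loads it into lipoproteins, whereas γ-tocopherol, common in plant oils, is cleared faster and also traps reactive nitrogen species. Ageing of the neocortex is known for oxidative damage, glial activation and changes in synaptic and mitochondrial genes, and for these reasons the genes of those processes were listed and are described by group.

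A gene's value is the deposited signal, the brightness of its probe set on a linear scale. Differences are given as log2(signal + 16) in mixture minus old control, and the offset understates the changes of dim genes. A gene was counted as risen or fallen when its adjusted p in limma's moderated test was below 0.05. In all, 603 of 13351 genes passed (4.52%), of which 181 were higher with the mixture (1.36%) and 422 lower (3.16%). Most differences were small. The median size was 1.31-fold among the rises and 1.27-fold among the falls, and 21 rises and 22 falls went past 1.5-fold. Among all genes, 84.0% had a 95% interval that stayed inside 1.5-fold in both directions. Signals of the groups did not overlap for 773 genes (5.79%): the 5 mixture arrays all lay above the 5 old control arrays for 279 genes (2.09%) and all below for 494 genes (3.7%). Among the called genes, this held for 117 of the 181 rises and 314 of the 422 falls.

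The count of called genes depended on how the arrays were scaled. The deposited signals had the same trimmed mean of 1000 on each array, with 2% of probe sets left out at each end. With array medians set equal 677 genes were called (5.07%), 33 rises (0.247%) and 644 falls (4.82%), which shifts the median of all genes to -0.07 from 0.00. After quantile normalization 83 were called (0.622%), 31 rises (0.232%) and 52 falls (0.389%), and after cyclic loess 84 (0.629%), 36 rises (0.27%) and 48 falls (0.36%). The share of calls that were higher was thus 30.0% as deposited, 4.87% with equal medians, 37.3% after quantile normalization and 42.9% after cyclic loess. The arrays counted as well, since 186 genes were called without mixture array 5, 239 without old control array 3, 294 without old control array 4, 359 without old control array 5 and 375 without mixture array 4. The rises alone were also fewer without mixture array 2 (108) and without old control array 1 (109).

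The falls lay mainly among the brightest genes. The brightest 10% of genes, those with a mean signal of 6012 or more, held 285 of the 422 falls (67.5%) and 3 of the 181 rises, and 21.3% of its genes fell. Its median difference was -0.14 as deposited and -0.01 after quantile normalization. The brightest 10% took 47.5% ± 1.16 of the tested signal in old controls (SD, n = 5) and 44.3% ± 0.71 in mixture-fed mice. In young controls it took 44.7% ± 0.36 and in mice given α-tocopherol alone 46.8% ± 1.13.

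**Figure D1:**
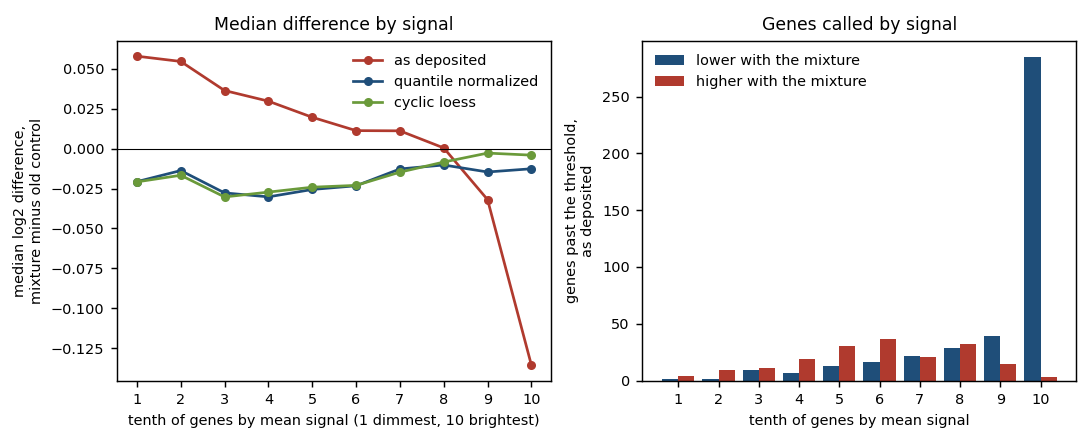
Left, the median log2 difference (mixture minus old control) in each of 10 equal bins of the 13351 genes ordered by mean signal, as deposited, after quantile normalization and after cyclic loess; right, the number of genes past the threshold in each bin as deposited. The deposited median runs from 0.06 in the dimmest 10% to -0.14 in the brightest, both other lines stay between -0.03 and 0.00, and 285 of the falls stand in the brightest 10%.

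The arrays of the groups also differed in their control probe sets, which serve to judge RNA integrity and ribosomal RNA carry-over. The β-actin 3'/5' ratio, which grows as the 5' ends of messages are lost, was 1.43 ± 0.14 in mixture-fed mice (range 1.22 to 1.60) and 2.04 ± 0.34 in old controls (range 1.73 to 2.52). All mixture arrays were below all old control arrays (two-sided exact permutation test, p = 0.00794; adjusted over 4 measures, 0.0106). The same test gave the same p-values for the Gapdh 3'/5' ratio, 0.819 ± 0.040 against 0.957 ± 0.034, and for the 18S ribosomal RNA control, with a signal of 910.2 ± 162 against 1648 ± 365. The median signal of all probe sets did not separate the groups (308 ± 17 against 292 ± 12, exact permutation p = 0.143). Once the β-actin ratio was entered as a covariate, limma called 0 genes; 897 genes had an unadjusted p below 0.05 and the median standard error rose from 0.11 to 0.15. Messenger RNA quality and diet cannot be told apart in these arrays for any result below. On a principal component analysis of the 10 arrays, old control array 3 and mixture array 5 lay farthest out, and without both 25 genes were called, 5 higher and 20 lower.

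Markers of the labelled tissue were present in both groups. Slc17a7, the vesicular glutamate transporter of neocortical excitatory neurons, had signals of 15002, 12759.8, 12371, 12200.5 and 14225 in old controls and 8321, 13566, 12192, 12726 and 12404 in mixture-fed mice, which overlap. Of 18 listed genes of neocortical excitatory neurons 16 were bright enough to be tested. The striatal marker Ppp1r1b was also bright, between 9192 and 12699.9 in old controls and between 9295 and 11449 in mixture-fed mice, and none of the 17 tested striatal markers passed the test. Because tissue pieces were measured, fewer cells of a type and less RNA per cell cannot be told apart.

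**Figure D2:**
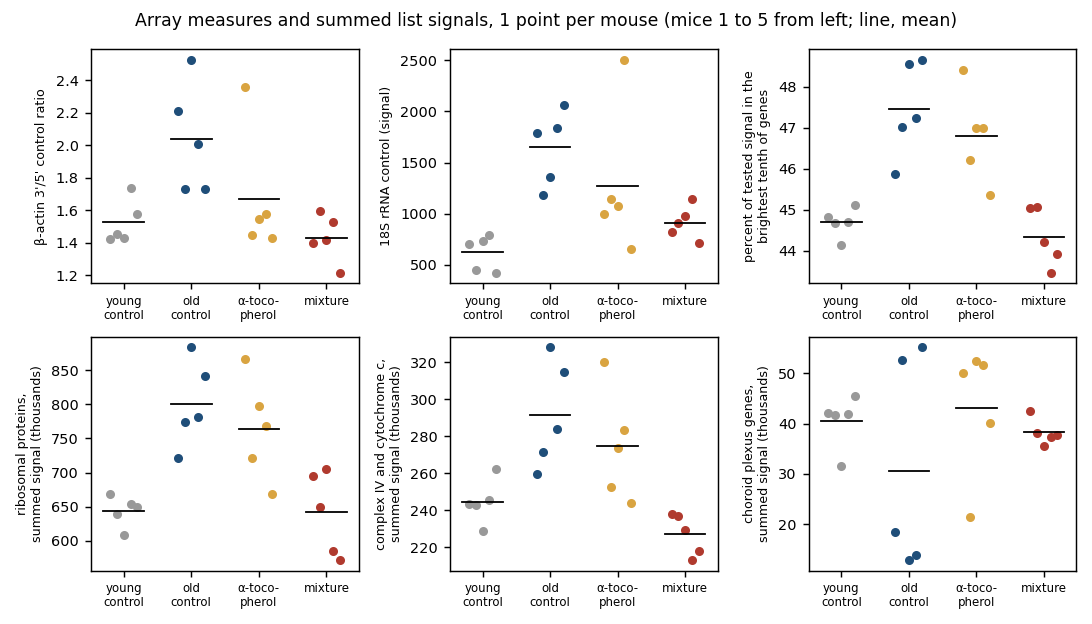
Array measures and summed list signals on each of the 20 arrays, 1 point per mouse with a line at the group mean. Top row, the β-actin 3'/5' ratio, the 18S control signal and the percent of tested signal in the brightest 10% of genes; bottom row, signals summed over ribosomal protein, complex IV and cytochrome c, and choroid plexus genes, with the axis in units of 1000. The mixture arrays lie below all old control arrays in the first 5 panels, and in the choroid plexus panel the old controls fall into 3 low and 2 high arrays.

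Under all 4 scalings, 58 genes were called in the same direction (0.434% of those tested), 12 higher (0.0899%) and 46 lower (0.345%). Their adjusted p-values as deposited ran from 0.00611 to 0.0380. The mixture and old control signals did not overlap for any of the 12 rises, nor for 45 of the 46 falls, Kctd20 being the exception. Over all genes 5.79% did not overlap, and selection by the same comparison favours such separation. With the β-actin covariate all 58 kept their sign, at medians of 0.40 for the rises and -0.36 for the falls, and 0 passed. These genes are described first, because their direction and call did not turn on the scaling.

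Kcnd3, which encodes the A-type potassium channel Kv4.3, had the smallest p among the rises. Its signals were 3676, 3837, 3294, 3218 and 3411 in old controls and 4769, 4849.9, 4140.5, 4711 and 5545 in mixture-fed mice. Every mixture-fed mouse was above every control, with a log2 difference of 0.46 (SE 0.07, n = 5 per group; limma adjusted p = 0.00611). Its 2 dimmer probe sets also lay higher, by 0.21 and 0.57.

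Lrrtm3 and Nrp1 act at the cell surface of neurons. Lrrtm3, a leucine-rich transmembrane protein of the postsynaptic side, read 1242, 1081, 857, 1079 and 1182 in old controls and 1739, 1696, 1714, 1835 and 1614 with the mixture. It was higher in all 5 treated mice than in any control, by 0.66 (SE 0.12, adjusted p = 0.00768), and the other 3 probe sets had the same sign. Nrp1, the semaphorin and VEGF co-receptor neuropilin-1, read 1631, 1722, 1166, 1473 and 1457 in controls and 1938, 2181, 2594, 2578 and 1815 with the mixture. The groups did not overlap, and the difference was 0.57 (SE 0.12, adjusted p = 0.0125).

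Plcxd3, a phospholipase C-like protein, had control signals of 887, 870.4, 687, 765 and 530.5 and mixture signals of 1205, 1341, 1173, 994 and 1168. Tanc1, a scaffold protein of the postsynaptic density, had 871, 939, 846, 936 and 795 in controls and 1228, 1238, 1365, 1319 and 1135 with the mixture. Both were higher in every mixture-fed mouse, Plcxd3 by 0.66 (SE 0.13, adjusted p = 0.00933) and Tanc1 by 0.51 (SE 0.09, adjusted p = 0.00768). Trak2, an adaptor that links mitochondria to kinesin, rose from 3288, 3156, 3075, 3204 and 2887 to 3937, 4372, 3841, 3757 and 4703, a difference of 0.40 (SE 0.08, adjusted p = 0.00917).

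Dnajc3, a chaperone of the endoplasmic reticulum that inhibits the eIF2α kinase PERK, had signals of 1854, 1863, 2222, 2154 and 2208 in old controls. In mixture-fed mice they were 2952, 2639, 3020.3, 2898 and 2317, all above the controls, and the difference was 0.42 (SE 0.08, adjusted p = 0.00933). All 4 other Dnajc3 probe sets were higher too, and one of them passed the test on its own. Nadk2, the mitochondrial NAD kinase that makes NADP, rose by 0.55 (SE 0.12, adjusted p = 0.0146), from 1668, 1901, 1781, 2059 and 2114 to 3014, 2447, 3145, 2612 and 2739.9. The remaining rises, each without overlap, were Lrrc58 at 0.48, Plekha3 at 0.47, Arhgef26 at 0.43, and Pcp4l1, a relative of the calmodulin regulator Pcp4, at 0.41.

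**Figure D3:**
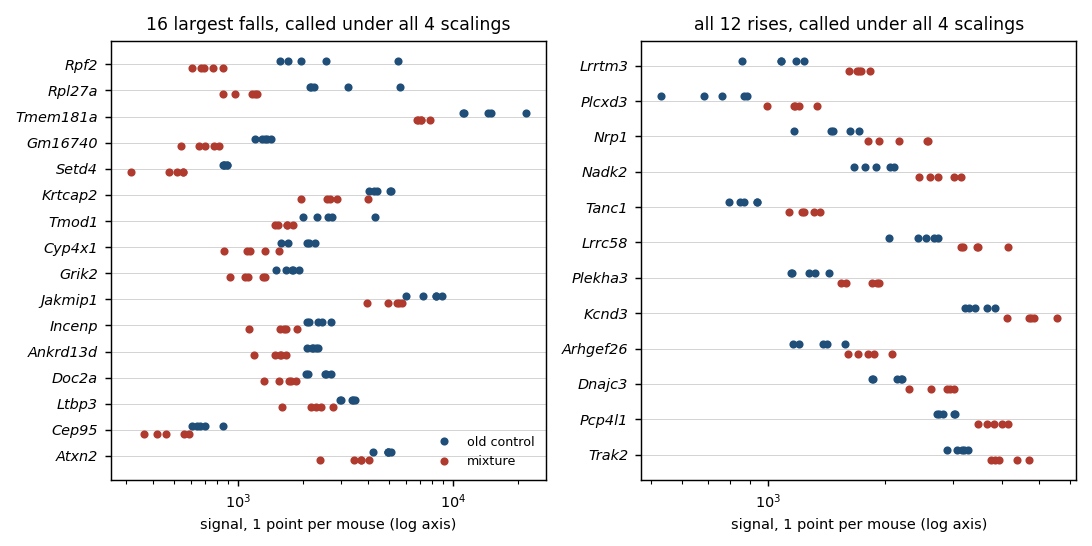
Signals in each old control and mixture-fed mouse (log axis) for genes called under all 4 scalings: the 16 largest falls at left and all 12 rises at right. Points of a gene's groups do not overlap in any row shown; the falls of Rpf2 and Rpl27a include one old control, array 5, well above the other 4.

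Clasp2 and Setd4 had the smallest p-values of the falls. Clasp2 encodes a protein that stabilises the growing ends of microtubules. Its brightest probe set read 9515, 9578, 9647, 11058 and 9799 in old controls and 7146, 6968, 7264, 7376 and 6518 in mixture-fed mice. The highest mixture signal was below the lowest control signal, with a log2 difference of -0.49 (SE 0.07, n = 5 per group; limma adjusted p = 0.00611). The 2 dimmer Clasp2 probe sets had the opposite sign, 0.16 and 0.17. Setd4, a SET-domain protein methyltransferase, read 887, 856, 862, 886 and 852 in controls, which were close to each other, and 554, 554, 517, 474 and 315 with the mixture. The difference was -0.85 (SE 0.13, adjusted p = 0.00611), mixture array 5 being the lowest. Its other 2 probe sets read -0.05 and 0.21, so for Clasp2 and Setd4 the fall was seen by 1 of 3 probe sets.

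Hdac7 and Ankrd13d were the other falls that held with each array left out. Hdac7, a class IIa histone deacetylase, went from 2196, 1989.9, 1833, 1814 and 2273 in old controls to 1498, 1301, 1481, 1616 and 1461, a difference of -0.45 (SE 0.08, adjusted p = 0.00768). Its second probe set read 0.21, against the fall. Ankrd13d, which binds ubiquitin on internalised receptors, went from 2293, 2228, 2348, 2212 and 2084 to 1586, 1663, 1483, 1566 and 1179, a difference of -0.58 (SE 0.11, adjusted p = 0.00768), and its second probe set read -0.11. With each of the 10 arrays left out in turn, both as deposited and after quantile normalization, 5 of the 58 genes were called every time: Kcnd3 among the rises, and Clasp2, Setd4, Hdac7 and Ankrd13d among the falls. The weakest of those repeats, quantile normalization without old control array 4, called 10 genes in all.

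Other falls called under all 4 scalings were picked here after their values were seen. Chchd10, a protein of the mitochondrial intermembrane space, had signals of 21895, 22719.6, 23251, 23255 and 23067 in controls and 17845, 16721, 17839, 16194 and 13774 with the mixture. It fell by 0.48 (SE 0.08, adjusted p = 0.00768), and the difference after quantile normalization was -0.26. Chchd6, a subunit of the MICOS complex that shapes the cristae, fell by 0.41 (SE 0.09, adjusted p = 0.012). The other probe set read -0.17 for Chchd10 and -0.01 for Chchd6. Ndufaf2, an assembly factor of complex I, fell by 0.41 (SE 0.10, adjusted p = 0.0206). Mmab, which makes the mitochondrial form of vitamin B12, fell by 0.31 (SE 0.08, adjusted p = 0.0299), but its other probe sets read 0.46 and 0.73, against the fall. No member of the lists of respiratory complexes, mitochondrial import or mitochondrial ribosomal proteins was among the 58. Doc2a, a calcium sensor for transmitter release (-0.55), Grik2, a kainate receptor subunit (-0.60), and the adhesion receptors Adgrl3 (-0.49) and Adgrb1 (-0.44) fell too. Grik2 had a second, dimmer probe set at 0.38, against its fall, and the other Adgrl3 probe sets ran from -0.11 to 0.22. Hsd17b7, an enzyme of cholesterol synthesis, fell by 0.41 (SE 0.09, adjusted p = 0.0161), and Pts, an enzyme of tetrahydrobiopterin synthesis, fell by 0.38 (SE 0.08, adjusted p = 0.0128). The other Hsd17b7 probe sets read -0.19, 0.10 and 0.25.

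Probe sets of 1 gene did not always agree. Of the 58 genes, 23 had 1 tested probe set and 35 had others, 67 in all. Of these 67, 40 had the same sign as the probe set used and 27 the opposite sign. The same sign past the threshold was seen for another probe set of 3 genes, Dnajc3, Nadk2 and Plekha3, and the opposite sign past the threshold for 0 of the 67. When the probe sets of a gene were averaged, 32 of the 58 remained called.

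The largest falls were those of Rpf2, Rpl27a and Tmem181a. Rpf2 encodes a factor that brings 5S ribosomal RNA into the assembling large ribosomal subunit, Rpl27a a protein of that subunit, and Tmem181a a membrane protein. Their promoters are shown because these genes were highest on the same array within old controls and within mice given α-tocopherol alone. The promoter of Sod1, the antioxidant enzyme described further on, is shown with them. The sequences are the 250 bases before the start of transcription in RefSeq (build GRCm38.p6), read 5′ to 3′ on the gene's strand. RefSeq lists 2 promoters each for Rpf2 and Tmem181a, of which the first listed is shown. Capitals mark matches, on either strand and with overlaps allowed, to the GC box GGGCGG, to CCAAT, or to TGACNNNGC, the core of the antioxidant response element.
Rpf2 (chr10:40247040-40247289, minus strand): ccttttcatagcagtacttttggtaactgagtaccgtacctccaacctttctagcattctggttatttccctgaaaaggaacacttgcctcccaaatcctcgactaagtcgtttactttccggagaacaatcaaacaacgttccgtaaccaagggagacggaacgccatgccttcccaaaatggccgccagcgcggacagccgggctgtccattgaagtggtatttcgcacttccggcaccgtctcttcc
Rpl27a (chr7:109518945-109519194, plus strand): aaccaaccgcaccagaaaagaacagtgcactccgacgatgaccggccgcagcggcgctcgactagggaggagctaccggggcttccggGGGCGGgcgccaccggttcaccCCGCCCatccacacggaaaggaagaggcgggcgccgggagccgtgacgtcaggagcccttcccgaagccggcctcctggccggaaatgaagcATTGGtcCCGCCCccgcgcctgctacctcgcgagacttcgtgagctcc
Tmem181a (chr17:6256610-6256859, plus strand): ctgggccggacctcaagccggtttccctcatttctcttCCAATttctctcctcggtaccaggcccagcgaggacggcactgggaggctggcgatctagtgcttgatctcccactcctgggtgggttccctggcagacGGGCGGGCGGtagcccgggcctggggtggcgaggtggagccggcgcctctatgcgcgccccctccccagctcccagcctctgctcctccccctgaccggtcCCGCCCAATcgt
Sod1 (chr16:90220512-90220761, plus strand): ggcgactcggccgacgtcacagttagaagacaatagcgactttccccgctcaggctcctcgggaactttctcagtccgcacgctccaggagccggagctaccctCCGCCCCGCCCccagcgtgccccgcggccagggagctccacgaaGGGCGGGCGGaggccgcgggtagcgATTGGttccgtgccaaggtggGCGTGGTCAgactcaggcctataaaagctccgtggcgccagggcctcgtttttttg
The GC box was found 3 times for Rpl27a, 3 times for Tmem181a and 4 times for Sod1, and 32.7% of the 32851 RefSeq promoters of this length hold it. CCAAT was found once for Rpl27a, 2 times for Tmem181a and once for Sod1, and 33.8% of promoters hold it. The antioxidant response element core was found once, for Sod1, and 10.2% of promoters hold it. Rpf2 had none of these matches.

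Rpf2 signals were 1708, 1569, 1966, 2553 and 5556 in old controls and 668, 606, 692, 759 and 849.6 in mixture-fed mice. Old control array 5 stood far above the others, and all 5 controls were above all treated mice. The difference was -1.72 (SE 0.33, adjusted p = 0.00917). The other 2 Rpf2 probe sets read 0.05 and -0.16, so this fall was seen by 1 of 3 probe sets. Rpl27a read 2237, 2179.5, 2159, 3249 and 5624 in controls and 848, 1155, 1226, 966 and 1195 with the mixture, a difference of -1.41 (SE 0.31, adjusted p = 0.0148). Its only tested probe set had a mean signal of 1497, against a median of 17260 for the tested ribosomal protein genes. Whether it reads the main Rpl27a message was not tested. Tmem181a read 11062, 11224, 14898, 14545 and 21878 in controls and 6870, 7088, 7098, 7769 and 6770.2 with the mixture, a difference of -1.002 (SE 0.21, adjusted p = 0.0118). Arglu1, a nuclear cofactor of splicing and hormone receptors, read 11041, 10299.9, 12248, 13078 and 19679 in controls and 6688, 8096, 6836, 7532 and 7688 with the mixture. It fell by 0.81 (SE 0.20, adjusted p = 0.0236) as deposited but missed the threshold after quantile normalization (-0.70, adjusted p = 0.0663). Its other probe set read 0.08.

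Signals of these 4 genes were highest on the same array within old controls and within mice given α-tocopherol alone, but not within the other groups. Old control array 5 was the highest control for each. Among the mice given α-tocopherol alone, array 4 was the highest, with signals of 3533 for Rpf2, 5209 for Rpl27a, 19953 for Tmem181a and 21398 for Arglu1. Both arrays also had the highest 18S control signals of their groups, 2068 and 2504. The other groups differed from this. Young control array 5 had the lowest 18S signal of its group, 421.1, but the highest Rpf2 and Rpl27a signals, 1350.1 and 1290. On that array Tmem181a and Arglu1 were the lowest of the group, at 4082.6 and 6041.8. Mixture array 5 had the lowest 18S signal of its group, 707.6, but the highest Rpf2 signal, 849.6. Whether ribosomal RNA carry-over has a part in the signals of these probe sets was not tested. Young controls read 737, 942, 580, 396 and 1350.1 for Rpf2, a range that takes in that of the mixture-fed mice.

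**Figure D4:**
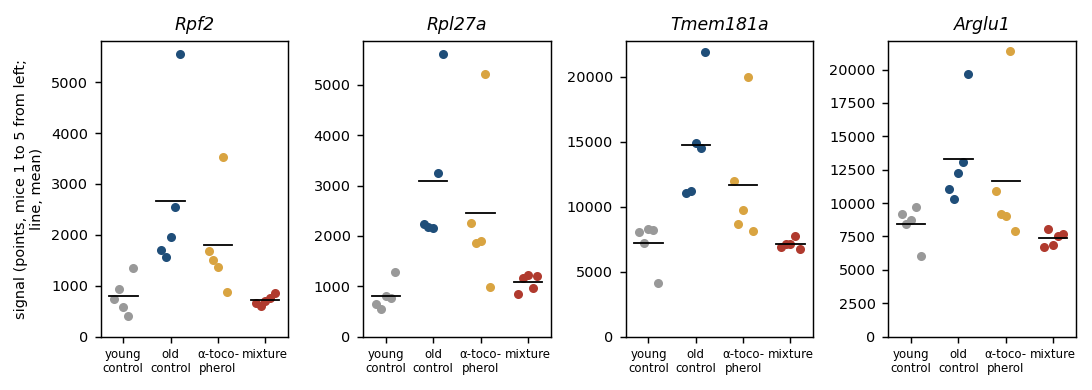
Signals of Rpf2, Rpl27a, Tmem181a and Arglu1 on all 20 arrays, 1 point per mouse (mice 1 to 5 from left in each group), with a line at the group mean. Old control array 5 and α-tocopherol array 4 are the highest points of their groups in all 4 panels, and the mixture-fed mice lie close together.

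Further large falls were called under all 4 scalings. Gm16740, an uncharacterised transcript, read 1286, 1362, 1416, 1324 and 1194 in controls and 539.8, 699.5, 812, 770.2 and 653 with the mixture. The groups were well apart, and the difference was -0.92 (SE 0.17, adjusted p = 0.0084). Krtcap2, a subunit of the oligosaccharyltransferase that attaches sugars to proteins, fell by 0.73 (SE 0.14, adjusted p = 0.0084), while its second probe set read -0.03. Tmod1, which caps actin filaments, fell by 0.72 (SE 0.15, adjusted p = 0.0125), Cyp4x1, a brain cytochrome P450, fell by 0.72 (SE 0.13, adjusted p = 0.0084), and Jakmip1, a microtubule-binding RNA-transport protein, fell by 0.59 (SE 0.12, adjusted p = 0.0115). The other Jakmip1 probe sets read -0.13 and 0.35. Junb, an activity-regulated AP-1 transcription factor, fell by 0.74 (SE 0.19, adjusted p = 0.0303) as deposited, and after quantile normalization the difference was -0.77 (adjusted p = 0.0569). Its signals were 2861, 2779.7, 1674, 2750.4 and 2456 in controls and 2207, 1554, 1067, 1558 and 1203 with the mixture, and control array 3 lay within the treated range. The call of Junb held in 4 of the 10 repeats with 1 array left out.

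The largest rises as deposited were of dim genes with wide spread. Shox2, a homeobox gene expressed in the thalamus, read 80.9, 175, 127, 332 and 97.2 in controls and 802, 291, 393, 653 and 313 in mixture-fed mice. Control array 4 overlapped the treated range, and the difference was 1.55 (SE 0.40, adjusted p = 0.0301). Tspan32, a tetraspanin of blood cells, read 184, 167, 204, 167 and 162 in controls and 166, 509, 637, 423 and 1143 with the mixture, mixture array 1 being at the control level, a difference of 1.38 (SE 0.35, adjusted p = 0.0266). Il1f10, a cytokine of the interleukin-1 family, read 259, 113, 145, 111 and 243 in controls and 379, 331, 463, 282 and 432 with the mixture. Its groups did not overlap, and it was higher by 1.11 (SE 0.27, adjusted p = 0.023). Myoz1, a calcineurin-binding protein of muscle, was higher by 0.86 (SE 0.24, adjusted p = 0.0405), without overlap. With each array left out in turn, the calls held in 4, 5, 7 and 4 of the 10 repeats for Shox2, Tspan32, Il1f10 and Myoz1. After quantile normalization none of these 4 passed (adjusted p = 0.0739, 0.0654, 0.0628 and 0.0922 in that order).

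Genes were also counted by function, in 60 lists drawn up for this tissue and treatment, with 1260 of their 1493 members tested. Against the 3.16% of all genes that fell, 36 lists had a larger share of fallen members. In 19 lists 3 or more members fell. These lists are made mostly of bright genes, since 293 of their 469 members (62.5%) stood in the brightest 10%, against 447 of 1260 (35.5%) over all lists, a gene counting once in each list that holds it. Of the brightest 10% of all genes 21.3% fell, and 10 lists had a larger share of falls than that. Whether brightness accounts for the counts of falls by list was not tested. After quantile normalization no list had more than 1 fallen member, and the median of each of those 19 lists lay between -0.10 and 0.10. Of the 132 genes that fell in any list, all were called with equal medians, 5 after quantile normalization and 4 after cyclic loess, and 23 had the opposite sign after quantile normalization. Of the 14 that rose in any list, 3, 4 and 5 were called in that order. The counts below are as deposited unless another scaling is named.

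Genes of oxidative phosphorylation, the mitochondrial chain that makes ATP, fell in number as deposited. In complex IV and cytochrome c, 7 of 11 tested members fell and 0 rose (median -0.36). In complex I it was 12 of 34 (median -0.17), in ATP synthase 6 of 16 (median -0.23), and in complexes II and III 2 of 13 (median -0.11). Cox6b1, a subunit of cytochrome c oxidase, read 31542, 32944, 39498, 34936 and 36441 in old controls and 28034, 27093, 25437, 22689.7 and 21744 in mixture-fed mice. The groups did not overlap, and the difference was -0.49 (SE 0.09, adjusted p = 0.00768). Cox5a of the same complex fell by 0.41 (SE 0.07, adjusted p = 0.00768), and all 3 of its probe sets had that sign. Ndufv3, a complex I subunit, read 14472, 13768, 17107, 15141 and 15697 in controls and 11167, 12307, 12613, 11411 and 10110.4 with the mixture, again without overlap, and fell by 0.40 (SE 0.08, adjusted p = 0.0115). Atp5h of ATP synthase fell by 0.46 (SE 0.09, adjusted p = 0.00933). After quantile normalization no member of complex IV, ATP synthase or complexes II and III passed in either direction, and in complex I 0 fell and 1 rose. The quantile differences were -0.14 for Cox6b1, -0.12 for Cox5a, -0.25 for Ndufv3 and -0.18 for Atp5h. Cox7a2 went from -0.39 to 0.01 and Atp5g3 from -0.34 to 0.02, so those signs depended on the scaling.

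Energy genes outside the chain were called in smaller numbers. In glycolysis 3 of 13 fell, among them Pgk1, phosphoglycerate kinase, which fell by 0.51 (SE 0.11, adjusted p = 0.0118) on its brightest probe set. The other Pgk1 probe sets read -0.04, at a mean signal of 19173, and -0.45, at a mean signal of 2674. Ldhb, the heart-type subunit of lactate dehydrogenase, fell by 0.26 (SE 0.06, adjusted p = 0.0193) as deposited and read 0.03 after quantile normalization. In the citric acid cycle 2 of 18 fell and 1 rose. The falls were Mdh2, malate dehydrogenase, at -0.44 (SE 0.09, adjusted p = 0.0115), and Idh3g, a subunit of isocitrate dehydrogenase, at -0.35 (SE 0.08, adjusted p = 0.0206). The second Idh3g probe set, of similar brightness, read 0.07. Among genes of mitochondrial import and dynamics 3 of 32 fell, and among mitochondrial ribosomal proteins 0 of 37 passed in either direction (median -0.04).

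Ribosomal protein genes held the most falls of any list. Of 43 tested members, 21 fell and 0 rose, with a median of -0.30. Their summed signal was between 721530.0 and 883412 in old controls and between 572130.0 and 704981 in mixture-fed mice, without overlap. Rps28, of the small subunit, read 27053, 30398, 32348, 30700.3 and 31863 in controls and 24109, 22244, 24471, 20466 and 18723 with the mixture, a difference of -0.47 (SE 0.09, adjusted p = 0.00917). Rps29 fell by 0.47 (SE 0.09, adjusted p = 0.00917), Rpl13a fell by 0.45 (SE 0.09, adjusted p = 0.00933) and Rps18 fell by 0.50 (SE 0.10, adjusted p = 0.00949). After quantile normalization 1 of the 43 fell, Rpl27a, and the median was -0.06. Many ribosomal protein genes have processed pseudogenes. Rps29, Rpl13a and Rps18 were read by probe sets of the x_at class, which can bind near-identical transcripts. The gene behind these signals is thus uncertain. Other named genes read by this class include Chchd6, Jakmip1, Adgrl3, Hsd17b7, Pgk1, Ldhb, Stx1a, Tuba1a, Hspa8, Meg3 and Ttr. Translation factors showed 4 of 26 falls, and genes of ribosome assembly 1 fall, Rpf2, and 1 rise, Wdr12, of 28.

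**Figure D5:**
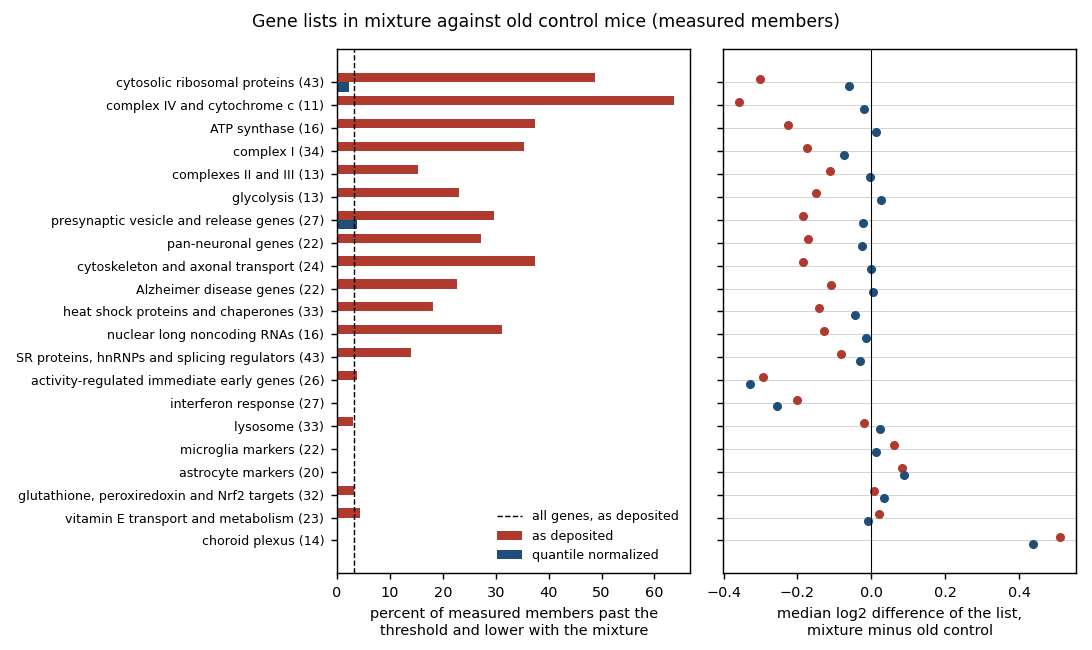
Left, the percent of each list's tested members that fell with the mixture, as deposited and after quantile normalization, with a dashed line at 3.16%, the share of all genes; right, each list's median log2 difference (mixture minus old control) under both scalings. Numbers of tested members stand in brackets; the bars of ribosomal, respiratory and synaptic lists nearly vanish after quantile normalization, whereas the medians of the immediate early, interferon and choroid plexus lists stay in place.

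Neuronal lists also held falls as deposited. Of 22 pan-neuronal genes 6 fell, of 27 presynaptic vesicle and release genes 8, of 24 cytoskeletal and axonal transport genes 9, and 0 rose in any of these lists. Snap25, the membrane SNARE of transmitter release, read 30699, 33362, 37084, 33378 and 38343 in controls and 27692, 25287, 25441, 24494 and 25052 with the mixture. All treated mice were below all controls, at -0.43 (SE 0.08, adjusted p = 0.00822), and at -0.09 after quantile normalization (adjusted p = 0.357). Stx1a, its partner syntaxin-1A, was called as deposited, at -0.47 (SE 0.09, adjusted p = 0.00768), and after quantile normalization, at -0.31 (adjusted p = 0.0477), but not after cyclic loess, at -0.29 (adjusted p = 0.0587). Its signals were 18086, 13461, 17915, 17073 and 18779 in controls and 13024, 13647, 11614, 11813 and 11058 with the mixture, with control array 2 inside the treated range. Syt1, the calcium sensor of release, fell by 0.36 (SE 0.10, adjusted p = 0.0333) on its brightest probe set, but the mean of its 4 probe sets was 0.11. Nrgn, a postsynaptic calmodulin-binding protein, fell by 0.42 (SE 0.07, adjusted p = 0.00619), Stmn1, which destabilises microtubules, fell by 0.41 (SE 0.07, adjusted p = 0.00619), and Tuba1a, an α-tubulin, fell by 0.43 (SE 0.09, adjusted p = 0.00998).

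Receptor, channel and activity genes were counted in the same way. Of 27 glutamate receptor and postsynaptic density genes 3 fell, of 16 neocortical excitatory neuron genes 3, of 21 genes of calcium channels, pumps and sensors 3, and of 22 GABA and interneuron genes 0 passed. Of 21 potassium channel genes 1 rose, Kcnd3. Of 26 immediate early genes 1 fell, Junb, although 21 of the 26 were below 0 and the median was -0.29, and -0.33 after quantile normalization. In all 9 neurotrophin and receptor genes tested, no call was made.

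Protein-handling and RNA-processing genes were mixed. Of 33 heat shock and chaperone genes 6 fell. Hspa8, the constitutive Hsc70, fell by 0.46 (SE 0.09, adjusted p = 0.00917) and Ahsa1, an activator of Hsp90, fell by 0.34 (SE 0.07, adjusted p = 0.0115). Of 25 genes of endoplasmic reticulum stress 2 rose, Dnajc3 and Herpud1, a protein of ER-associated degradation, at 0.34 (SE 0.10, adjusted p = 0.0441), and 1 fell, Calr. Of 31 proteasome genes 2 fell, and of 22 autophagy genes 3 fell, all 3 of them members of the Atg8 family, Map1lc3a, Map1lc3b and Gabarapl1. Map1lc3a and Gabarapl1 turned to 0.02 and 0.01 after quantile normalization. Of 43 splicing regulators 6 fell, and of 16 nuclear long noncoding RNAs 5 fell. Meg3, an imprinted noncoding RNA, fell by 0.43 (SE 0.09, adjusted p = 0.00962) and read -0.03 after quantile normalization. Rian, its neighbour in the same imprinted cluster, read 14680.3, 9644, 15087, 13543 and 13295 in controls and 7703, 9251, 5532, 12636 and 6197 with the mixture, overlapping, and the difference was -0.73 (SE 0.18, adjusted p = 0.0229). Of 21 circadian clock genes 3 fell, Csnk1d, Dbp and Ciart, though 3 of the 4 other Csnk1d probe sets were above 0.

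Of 22 genes linked to Alzheimer disease 5 fell: App, Aplp1, Sncb, Clu and Apoe. App, the precursor of amyloid β, read 26549, 32014, 36374, 30656 and 35946 in controls and 25978, 25964, 23769.9, 22436 and 24217 in mixture-fed mice. All treated mice were lower, at -0.39 (SE 0.08, adjusted p = 0.0115), and after quantile normalization the difference was -0.05 (adjusted p = 0.595). The second App probe set, with a mean signal of 17222 against 28355, read -0.03 as deposited. None of the 22 passed after quantile normalization.

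Of 20 astrocyte markers 1 rose, the acyl-CoA synthetase Acsl6, and of 22 microglia markers 1 rose, P2ry12, the ADP receptor of resting microglia (0.50). Gfap, the astrocyte filament protein that is high in old brain, read 6929, 8071, 8336, 7165 and 8272 in controls and 7730.4, 7388, 17441, 7227 and 5752 with the mixture. Mixture array 3 stood apart, the other 4 lay around the controls, and the difference was 0.12 (SE 0.18, adjusted p = 0.781). Among 11 reactive astrocyte genes and 7 MHC class II genes 0 passed. Of 19 genes of disease-associated microglia 2 fell, Apoe and Fth1, the ferritin heavy chain, and of 14 genes of MHC class I and the immunoproteasome 1 fell, Calr. Of 12 complement genes 1 fell, Clu, and of 33 lysosomal genes 1 fell, Psap. None of 27 interferon response genes passed, while 24 of them were below 0 and the median was -0.20, and -0.26 after quantile normalization. Their summed signal was between 18744 and 47256 in old controls and between 17588 and 20983 with the mixture, which overlap. The medians of that sum were close, 19714.5 in old controls and 19775 with the mixture. With α-tocopherol alone, against the same old controls, the median of the list was -0.19. Of 20 myelin genes 2 fell, Mbp (-0.50) and Qdpr (-0.30), with a list median of 0.01.

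Genes of vitamin E handling were called at a share near that of all genes, 4.35% against 4.52%. Of 23 genes of vitamin E transport and metabolism 1 fell, Apoe (-0.27), which read 0.13 after quantile normalization and 0.03 after cyclic loess. Ttpa, the α-tocopherol transfer protein, was dim in this tissue, at 238, 294, 229, 291 and 276 in controls and 251.5, 257, 254, 271 and 312 with the mixture. The groups overlapped, the difference was 0.02 (SE 0.18, adjusted p = 0.966), and its 95% interval ran from -0.35 to 0.39. Sec14l2, a tocopherol-associated protein, read 2444, 1919, 2135, 1781 and 1928 in controls and 1700, 1800.4, 1767, 2097 and 1819 with the mixture, a difference of -0.15 (SE 0.08, adjusted p = 0.345). Scarb1, the HDL receptor that takes up vitamin E, differed by 0.05 (SE 0.12, adjusted p = 0.851), and Pltp, the phospholipid transfer protein, by -0.07 (SE 0.11, adjusted p = 0.774). The signs of Ttpa, Scarb1 and Pltp turned under some alternatives.

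Among superoxide dismutases, catalase and glutathione peroxidases 1 of 10 fell and 0 rose. That gene was Sod1, the cytosolic superoxide dismutase, at 18558, 20280.1, 20072, 19418 and 21964 in controls and 15832, 16677, 16386, 14229 and 13641 in mixture-fed mice. The groups did not overlap and the difference was -0.39 (SE 0.08, adjusted p = 0.0144), but -0.17 after quantile normalization (adjusted p = 0.233). All 4 Sod1 probe sets were lower, from -0.57 to -0.07. Sod2, the mitochondrial enzyme, read 6527, 6498, 6456, 6432 and 5659.9 in controls and 5247, 5929, 5652, 5500 and 4557 with the mixture, a difference of -0.23 (SE 0.09, adjusted p = 0.119). Cat, catalase, read 2162, 2252, 1430.2, 2264 and 2188 in controls and 1908, 2152, 2534, 2248 and 1488 with the mixture, and it differed by 0.00 (SE 0.12, adjusted p = 0.993). Gpx4, the peroxidase that removes lipid hydroperoxides, differed by 0.00 (SE 0.07, adjusted p = 0.995), with a 95% interval from -0.15 to 0.15, on its brightest probe set. Its second probe set, with a mean signal of 12583 against 14641, read -0.39 (unadjusted p = 0.00497), so the probe sets of Gpx4 disagreed. Of 32 glutathione, peroxiredoxin and Nrf2 target genes 1 fell, Gstp1 (-0.20), and their median was 0.01. Of 23 cholesterol synthesis genes 2 fell, Hsd17b7 and Hmgcs1 (-0.38), with 20 below 0 and a median of -0.12.

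Markers of other tissues were counted next. Of 14 tested choroid plexus markers 2 rose, Kl and Wfdc2, and none was below 0 (median 0.51, and 0.44 after quantile normalization, when 0 passed, as after cyclic loess; with equal medians 1 passed, Kl). Kl, the co-receptor klotho, read 89, 547, 65.1, 103 and 227 in old controls and 512, 481, 484, 384 and 425 in mixture-fed mice. Control array 2 was above every treated mouse and the other 4 were below, and the difference was 1.48 (SE 0.36, adjusted p = 0.0247). Ttr, transthyretin, a carrier of thyroid hormone made by the plexus, read 14076, 44097, 8129, 10254 and 50082 in controls and 35745, 31443, 28306, 31447 and 30549 with the mixture, and the difference was 0.71 (SE 0.37, adjusted p = 0.299). Its other 3 probe sets read 0.98, 1.11 and 1.52. Summed over the 14 markers, the signal was between 12939 and 55114 in controls and between 35587 and 42499 in treated mice, so the range of the controls covered that of the treated mice. With each array left out in turn, the call held in 6 of 10 repeats for Kl and in 2 for Wfdc2. The amount of choroid plexus in the pieces, and its part in the rises of Kl and Wfdc2, was not tested.

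Of 19 tested markers of thalamus, hypothalamus, cerebellum and hindbrain 1 rose, Zic1, a zinc finger factor, by 0.66 (SE 0.18, adjusted p = 0.0365), and under each of the 3 other scalings 0 rose. One marker of the 19 was below 0 and the median was 0.30. Tcf7l2, a transcription factor of thalamic neurons, read 134, 281, 131, 182 and 228 in controls and 387, 312, 366, 358 and 195 with the mixture, and its difference of 0.73 did not pass. Prkcd, a kinase high in thalamus, read 1168, 1783, 1847, 1856 and 1367 in controls and 3003, 2032, 2306, 2495 and 2017 with the mixture, without overlap, at 0.57 (adjusted p = 0.0566). The summed signal of the 19 markers was between 13834 and 22268 in controls and between 18376 and 31328 in treated mice, which overlap. Whether the pieces held unequal amounts of thalamus, and whether this has a part in the rise of Shox2, was not tested. The call of Zic1 held in 3 of the 10 repeats with 1 array left out. Of 18 markers of meninges and fibroblasts 2 rose, Ogn (0.60) and Islr (0.44); the summed signal of the 18 was between 15106 and 19145 in controls and between 16882 and 20867 in treated mice, and its part in these rises was not tested. Neither gene passed under any of the 3 other scalings. Among 17 endothelial, 11 pericyte and smooth muscle, 9 ependymal, 17 striatal and 8 hippocampal markers 0 passed. Of the striatal markers 13 were below 0 and 4 above, with a median of -0.07. Of 13 blood and erythroid markers 1 was bright enough to test.

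Old mice given α-tocopherol alone allow the values to be set side by side, though their dose of α-tocopherol was 1000 mg/kg and not 500 mg/kg, and both comparisons share the old controls. Against old controls, limma called 0 genes with α-tocopherol alone (753 with an unadjusted p below 0.05, lowest adjusted p = 0.829). Mixture against α-tocopherol directly gave 0 calls as well (1163 with an unadjusted p below 0.05, lowest adjusted p = 0.113), so no gene was shown to differ between the supplements. For the 12 rises called under all scalings, the median was 0.48 with the mixture and 0.26 with α-tocopherol alone, where the 12 values ran from 0.08 to 0.51. For the 46 falls, the medians were -0.45 and -0.17, and the values with α-tocopherol alone ran from -0.55 to 0.02. These genes were selected by their mixture minus old control differences, which favours larger medians with the mixture, so the medians do not rank the supplements. Kcnd3 signals with α-tocopherol alone were 3875, 3816, 3893, 3667 and 3678, and those of Clasp2 9253, 8833, 8793, 9545 and 7224. Old minus young controls, another comparison with the same old controls, gave medians of -0.13 for the 12 rises and 0.32 for the 46 falls. Selection by differences from these old controls favours the opposite sign here, so these medians do not measure a reversal of ageing.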

How the data were processed

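Neocortex RNA of 20 mice (5 per group) was measured on Affymetrix GeneChip arrays. Intensity values were deposited by the authors as linear signals; GCOS is named in the submitters' processing notes, without a version. Each array has a trimmed mean of 1000 when 2% of probe sets are left out at each end, so the deposited intensities were already scaled. Precision is limited by the number of arrays.

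Of 45101 probe sets, 64 controls were left out; of the rest, 34945 had 1 gene symbol in the platform annotation, 932 several and 9160 none. Symbols were updated through the RefSeq table of GRCm38.p6 for 34741 probe sets and kept for 204. Tests were limited to the 60% of probe sets brightest on average across the arrays (signal of 184 or more), with the brightest probe set per gene. limma (3.58.1, R 4.3.3) was fitted to log2(signal + 16) over all 4 groups, with lmFit, eBayes with an intensity trend and Benjamini-Hochberg adjustment over 13351 genes. The script was tested on simulated data with independent noise for each gene. That simulation held no differences in array scaling or RNA quality, so it does not bear on them. Array measures were compared by two-sided exact permutation tests.

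Alternatives were 3 other scalings (array medians, quantile, cyclic loess), pseudocounts of 1 and 64, other filters and probe set rules, other variance models, the replicate block, the β-actin covariate and leaving out arrays. The comparison, the lists and the genes always named were chosen with earlier results of these data known. Named genes were the 12 largest changes and 6 smallest p-values in each direction, the 8 largest changes in each direction among genes called under all scalings, up to 4 members of each list with 3 or more calls, and genes of vitamin E, antioxidant defence and plexus fixed by name. Other genes of the 58 called under all scalings, other called members of lists and the region markers were named after their values were seen.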

Additional observations from a re-analysis of the deposited data

Results flagged for a closer look

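A single array stood apart from the other 4 of its group in 14 of the 246 groups looked at (123 named genes and array measures in each of 2 diets). The gap to the next array, as a share of the group's range, was compared with Dixon's value of 0.71 for 5 arrays, which chance passes in about 1 of 20 groups. In old controls these were Junb on array 3 (low, 0.715), Clasp2 on array 4 (high, 0.804), Mdh2 on array 5 (high, 0.864), Stx1a on array 2 (low, 0.714), Rian on array 2 (low, 0.717), Sod2 on array 5 (low, 0.897), Cat on array 3 (low, 0.899) and the median signal of array 3 (high, 0.77). In mixture-fed mice they were Setd4 on array 5 (low, 0.721), Ndufa12 on array 5 (low, 0.784), Ldhb on array 4 (low, 0.72), Syt1 on array 4 (low, 0.775), Slc25a3 on array 4 (low, 0.731) and Gfap on array 3 (high, 0.734). The arrays at the ends of the principal components, old control 3 and mixture 5, account for 5 of the 14.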

How the results depend on the processing

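As reported, 603 genes were called, 181 higher and 422 lower. Equal array medians gave 677, 33 and 644 in that order, quantile normalization 83, 31 and 52, cyclic loess 84, 36 and 48, the mean of a gene's probe sets 285, 113 and 172, the 10 arrays alone 319, 70 and 249, no intensity trend 311, 92 and 219, the β-actin covariate 0, 0 and 0, and each probe set on its own 970, with 350 higher. Without a filter on dim probe sets 118 were higher. Without old control array 3 and mixture array 5, an alternative chosen after seeing the data, the counts were 25, 5 and 20. With the replicate number as a block the counts were 695, 217 and 478. The number does not pair the mice: deviations of same-numbered arrays from their group means correlated at 0.01, 0.12, -0.01, 0.03 and 0.11. Leaving out 1 array gave 186 (without mixture array 5) to 593 calls, 44 to 191 higher and 142 to 402 lower, and after quantile normalization 10 to 106 calls. The other alternatives for these counts stayed within 1.5 times.

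Of the 58 genes called under all scalings, all kept their sign and 45 to 58 their call when 1 array was left out as deposited, but 14 without both arrays at the ends of the components, 32 with probe sets averaged (where 1 changed sign) and 0 with the β-actin covariate, where all 58 kept their sign with medians of 0.40 for the rises and -0.36 for the falls. With 1 array left out after quantile normalization, 6 to 49 remained.

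Differences of array measures with 1 array left out were -0.687 to -0.488 for the β-actin ratio, -0.149 to -0.120 for Gapdh, -854 to -633 for the 18S signal and 10.1 to 21.5 for the median signal (adjusted p of 0.0317 without old control array 3). As differences of medians the first 3 were -0.593, -0.126 and -887, each with an exact permutation p adjusted to 0.0635.

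Signs of log2 differences turned for some named genes. After quantile normalization they were Cox7a2 0.014, Atp5g3 0.023, Ldhb 0.025, Vsnl1 0.013, Map1lc3a 0.022, Gabarapl1 0.0091, Slc25a3 0.069, Eef1a2 0.046, Eif4a2 0.053 and Snhg11 0.013, against falls as deposited. After cyclic loess they were Slc25a3 0.011 and Eif4a2 0.0039, and with probe sets averaged Syt1 0.11, Ddx17 0.018 and Csnk1d 0.056. The other genes whose sign turned were not called. Equal medians gave Ttpa -0.052, Scarb1 -0.023, Gpx4 -0.075 and Cat -0.073. Quantile normalization gave Ttpa -0.046 and Cat -0.022, cyclic loess Ttpa -0.057, Pltp 0.025 and Cat -0.021, array weights Ttpa -0.039, Gpx4 -0.0031 and Cat -0.027, the β-actin covariate Ttpa -0.32 and Gpx4 -0.022, probe sets averaged Scarb1 -0.092, Pltp 0.080 and Gpx4 -0.19, and leaving out both end arrays Ttpa -0.079, Gpx4 -0.019 and Cat -0.011. With 1 array left out the ranges were -0.031 to 0.057 for Ttpa, -0.025 to 0.17 for Scarb1, -0.024 to 0.061 for Gpx4, -0.12 to 0.11 for Cat and -0.15 to 0.25 for Gfap, the lowest being without mixture array 3. The cause of these changes was not tested. Probe sets with a mean signal below 184 were not tested, and signal over background was not measured here. In all, 2173 gene results were the same, 741 lost their call and 50 turned; of list counts and medians 330 moved little and 245 more.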
